A study of Mus musculus with 3 samples.

Results

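The genes described here encode ENL, the chromatin reader that carries the T1 mutation in this study, its closest relatives, and proteins of the machines to which these readers attach. They were chosen by symbol as 10 of the 32285 genes in the deposited matrices. The YEATS readers were *Mllt1* (ENL), *Mllt3* (AF9), *Yeats2* and *Yeats4* (GAS41), the super elongation complex was represented by *Aff1*, *Aff4*, *Ell2* and *Cdk9*, and the DOT1L complex by *Dot1l* and *Mllt10* (AF10). All 10 had UMIs (unique molecular identifiers, one for each captured transcript molecule) in every library.

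A YEATS domain is a pocket that binds acylated lysines on histone tails. ENL and AF9 use it to bring either of 2 machines to chromatin, the super elongation complex, in which the kinase CDK9 releases RNA polymerase II from its pause near the start of a gene, or the complex of DOT1L, the enzyme that methylates histone H3 inside transcribed genes. YEATS2 and GAS41 serve other complexes, the ATAC acetyltransferase complex and the TIP60 and SRCAP complexes. Mutations in the YEATS domain of ENL occur in Wilms tumour, a childhood tumour of kidney progenitors.

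Whole kidneys of mouse embryos were taken at E15.5 (embryonic day) and measured by droplet single-cell RNA sequencing of transcript 3′ ends. The 3 libraries held C57BL/6 embryos with normal *Enl* (Enl-WT, *Enl*+/+ *Wt1*GFPCre/+, no treatment), embryos heterozygous for the mutation (Enl-T1, *Enl* flox-T1/+ *Wt1*GFPCre/+, no treatment), and embryos of the same genotype whose mothers took TDI-11055 orally at 100 mg/kg daily between E10.5 and E14.5 (Enl-T1 TDI-11055). TDI-11055 is a small molecule that occupies the YEATS pocket of ENL. The Cre driver recombines in the nephron and stromal lineages and disables 1 *Wt1* allele in all 3 groups, and each library pooled embryos of either sex with no record of which cell came from which embryo. Each group was therefore 1 library, no test between groups was possible, and no p-value is given. Every interval is an exact 95% interval that covers counting error only, not differences between embryos or preparations.

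The mutation of the first member can be located. T1 repeats a short unit in exon 4 of *Mllt1*. In the reference (GENCODE transcript ENSMUST00000025053.9) this unit of 9 bases lies on the minus strand at chr17:56905781-56905789 of GRCm38 and encodes codons 115 to 117 of 547, within the part of the protein that forms the YEATS domain. It is shown because it is the mutation by which the groups differ, with the repeated unit in capitals and 9 coding bases on either side, 5′ to 3′ in the direction of the gene.

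Mllt1 reference around the T1 unit: cctcctgtcAACCACCTGcgctgtgag

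The counts came from the 3′ ends of transcripts and exon 4 lies upstream, so both alleles were counted together. The level of *Mllt1* therefore checks nothing about the labels.

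Barcodes with 1000 to 6000 detected genes and at most 10% mitochondrial UMIs were kept, which left 5233 cells of Enl-WT, 4144 of Enl-T1 and 2754 of the treated library. The libraries differed in ways that bear on every value here. Median depth was 5090, 9391 and 16932 UMIs per cell, ribosomal protein genes took a median of 16.5%, 26.8% and 27.9% of a cell's UMIs, and 26.5%, 73.3% and 35.1% of cells had *Xist* and no Y-linked UMI. Of the kept barcodes, 5 to 8 were shared by each pair of libraries. The 4 lineages (nephron, stroma, ureteric epithelium and endothelium) and 13 cell classes were rebuilt by clustering, so their names and borders may differ from those of the study. The uncommitted nephron progenitor-like class (NP1-like) held 643, 500 and 531 cells. Its defining markers followed the groups, with *Six2* at 179, 85.0 and 176 CPM (counts per 1e6 summed UMIs) and *Cited1* at 347, 78.3 and 217 CPM in the order Enl-WT, Enl-T1, Enl-T1 TDI-11055. The 12 markers of the class summed to 1610, 616 and 1167 CPM, with 1, 1 and 0 of them at 0. The 8 markers of committed progenitors summed to 430, 593 and 448 CPM in these cells, and ribosomal protein genes took 19.4%, 30.8% and 30.4% of their UMIs. A cycling nephron cluster of 78, 108 and 72 cells, closest to this class, went unnamed and was left out. Other clusters also went unnamed and were counted in their lineage but in no class. Among them were a nephron cluster led by *Igfbp5* (133, 295 and 131 cells) and a ureteric cluster led by *Opcml* (253, 134 and 148 cells). The part of these differences in the results was not tested.

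The NP1-like class is named after the progenitors that the study calls self-renewing, and whether its cells self-renew was not tested. Its clusters led by the cycling genes *Rrm2* and *Ube2c* had 0 of the class markers among their 10 leading genes. In NP1-like cells, 4 of the 10 genes were lower by at least 1.4-fold in Enl-T1 than in Enl-WT and 1 was higher. *Aff4*, the scaffold of the super elongation complex, and *Dot1l* were the lowest, at 0.429 and 0.537 of their Enl-WT level. *Yeats2* and *Mllt10* stood at 0.684 and 0.697, and *Ell2*, an elongation factor at few UMIs, at 1.55. Of all 9938 genes with at least 5 CPM, 38.1% were lower past this fold and 8.23% were higher, so 4 lower members of 10 are close to the background. The median log2 ratio was −0.30 over the members and −0.33 over all genes. Relative to that median of all genes, *Aff4* and *Dot1l* were still lower past 1.4-fold and *Ell2* higher, against 18.6% of all genes lower and 18.8% higher. The number of members below their Enl-WT level was 8 by CPM and 5 under median-of-ratios scaling, which turned the sign of *Mllt3*, *Aff1* and *Cdk9*.

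With TDI-11055, 2 of the 10 genes were lower past the fold in NP1-like cells than in Enl-T1 and 1 was higher. *Aff1*, the other scaffold of the super elongation complex, was at 0.443 of its Enl-T1 level, *Ell2* was at 0.640, and *Cdk9*, the kinase, at 1.47. Of 9681 genes, 12.6% were lower and 9.84% higher, and relative to the median of all genes 12.3% were lower and 10.3% higher, with the same 3 members past the fold. The members had a median log2 ratio of −0.13 and all genes of −0.01. Both comparisons use the Enl-T1 library, so they are not independent of each other. The plot of NP1-like ratios shows the 10 genes in both.

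**Figure D1:**
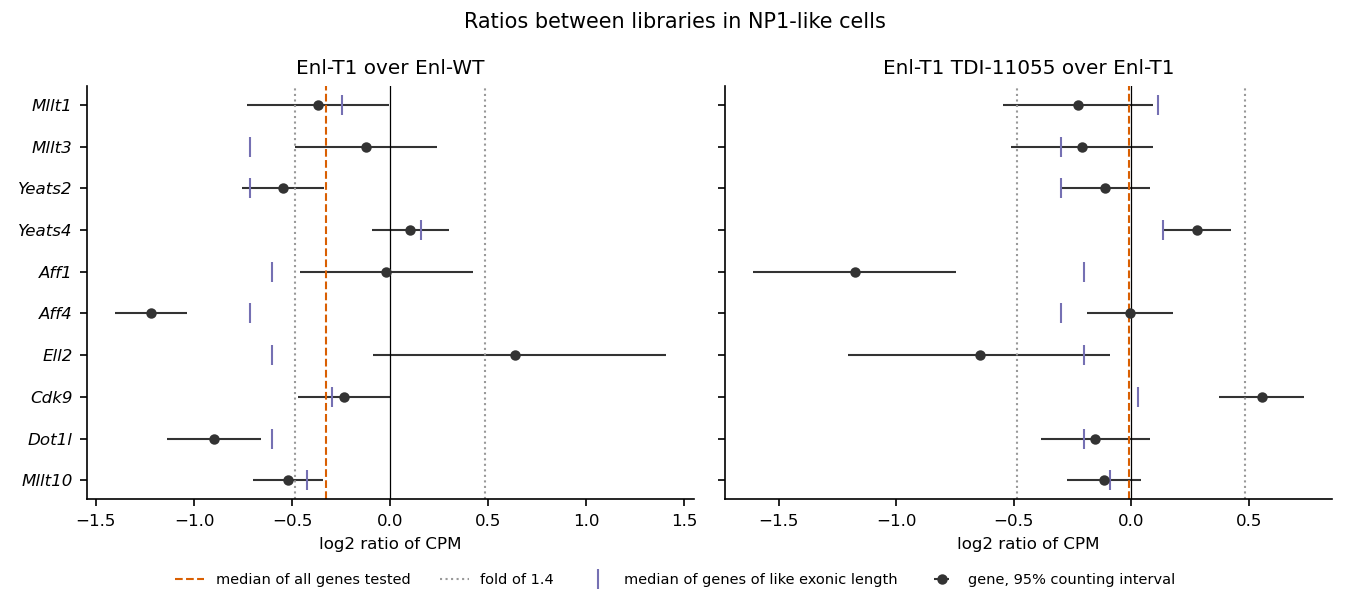
Log2 ratio of CPM in NP1-like cells (horizontal axis) for each of the 10 genes (rows), Enl-T1 over Enl-WT and Enl-T1 TDI-11055 over Enl-T1. Points carry 95% counting intervals, dashed lines mark the median of all genes, dotted lines mark 1.4-fold and purple ticks the median of genes of like exonic length. *Aff4* (−1.22) and *Dot1l* (−0.90) lie farthest left in the first comparison, and *Aff1* (−1.17) stands apart on the left and *Cdk9* (0.56) on the right in the second.

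Among the YEATS readers, *Mllt1* had 29.6 CPM in Enl-WT NP1-like cells (24.4 to 35.6, 112 UMIs), 22.9 in Enl-T1 (19.5 to 26.9, 155 UMIs) and 19.6 with TDI-11055 (16.9 to 22.7, 180 UMIs). The level was highest in Enl-WT, and the intervals of neighbouring groups overlapped. The ratio was 0.775 (0.604 to 0.997) for Enl-T1 over Enl-WT and 0.856 (0.686 to 1.07) for TDI-11055 over Enl-T1, and the first was −0.04 on the log2 scale relative to the median of all genes. *Mllt3*, which encodes the paralog that joins the same complexes, had 27.8, 25.5 and 22.0 CPM, with ratios of 0.917 (0.715 to 1.18) and 0.865 (0.702 to 1.07). Both intervals included 1, but the clusters that make up the class were unlike. Enl-T1 over Enl-WT was 0.645 (0.434 to 0.952) in the cluster led by *Rspo3*, 1.56 (0.898 to 2.84) in the one led by *Rrm2* and 1.43 (0.867 to 2.44) in the one led by *Ube2c*. For *Mllt3* the TDI-11055 over Enl-T1 ratio was 0.935, 0.878 and 0.554 (0.344 to 0.873) in the same order.

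*Yeats2* had 90.4 CPM in Enl-WT (81.1 to 101), 61.9 in Enl-T1 (56.1 to 68.1) and 57.4 with TDI-11055 (52.6 to 62.5). Enl-WT stood above both other groups without overlap, while those overlapped. The Enl-T1 over Enl-WT ratio of 0.684 (0.592 to 0.792) became −0.22 on the log2 scale relative to all genes, within 1.4-fold. *Yeats4* was the only reader that was not lower in the Enl-T1 library, with 87.8 CPM in Enl-WT (78.6 to 97.7), 94.3 in Enl-T1 (87.1 to 102) and 114.4 with TDI-11055 (108 to 122). The TDI-11055 level lay above both others without overlap, at a ratio of 1.21 (1.10 to 1.34) to Enl-T1.

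Of the super elongation complex, *Aff4* had 147.5 CPM in Enl-WT NP1-like cells (136 to 160, 558 UMIs), 63.4 in Enl-T1 (57.5 to 69.7, 428 UMIs) and 63.1 with TDI-11055 (58.1 to 68.5, 579 UMIs). Enl-WT was far above the other libraries, which overlapped. The ratio of 0.429 (0.378 to 0.488) was −1.22 on the log2 scale and −0.89 relative to all genes, and TDI-11055 over Enl-T1 was 0.997 (0.878 to 1.13), pooled from 1.02 and 1.10 in the clusters led by *Rspo3* and *Rrm2* and 0.575 (0.432 to 0.761) in the one led by *Ube2c*. Its paralog *Aff1* had 18.5 CPM in Enl-WT (14.4 to 23.4, 70 UMIs), 18.2 in Enl-T1 (15.1 to 21.7, 123 UMIs) and 8.07 with TDI-11055 (6.34 to 10.1, 74 UMIs). In these cells the scaffolds thus separated by library, *Aff4* between Enl-WT and the rest and *Aff1* between TDI-11055 and the rest. For *Aff1* the ratios were 0.984 (0.728 to 1.34) and 0.443 (0.328 to 0.596). Over whole lineages *Aff1* also separated Enl-WT from Enl-T1 by CPM, at 33.5 (30.5 to 36.7) and 22.3 CPM (19.9 to 24.9) in nephron. In ureteric epithelium it had 51.9 (47.7 to 56.3) and 37.8 CPM (34.8 to 41.0), while the intervals in stroma and endothelium overlapped. Relative to the median log2 ratio of all genes, −0.41 in nephron and −0.30 in ureteric epithelium, *Aff1* was within 1.4-fold in both. In committed nephron progenitor-like cells it had 22.7 (17.4 to 29.1) and 21.7 CPM (13.9 to 32.3). The nephron make-up also differed, with 261 and 135 podocyte-like and 276 and 32 proximal tubule-like cells. The part of this make-up was not tested.

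*Ell2*, which raises the catalytic rate of the polymerase, was the sparsest member, with 22, 61 and 53 UMIs in NP1-like cells, or 5.82 (3.65 to 8.81), 9.03 (6.91 to 11.6) and 5.78 CPM (4.33 to 7.56). All neighbouring intervals overlapped. The ratio of 1.55 for Enl-T1 over Enl-WT had an interval of 0.940 to 2.66 and that of 0.640 for TDI-11055 over Enl-T1 one of 0.434 to 0.940, so the first could not be told from 1. *Cdk9* had 66.1 CPM in Enl-WT (58.2 to 74.8, 250 UMIs), 56.1 in Enl-T1 (50.6 to 62.1, 379 UMIs) and 82.5 with TDI-11055 (76.7 to 88.5, 756 UMIs). TDI-11055 was the highest without overlap, while Enl-WT and Enl-T1 overlapped. The ratio of TDI-11055 to Enl-T1 was 1.47 (1.30 to 1.67).

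Of the DOT1L complex, *Dot1l* had 78.3 CPM in Enl-WT NP1-like cells (69.6 to 87.7, 296 UMIs), 42.0 in Enl-T1 (37.3 to 47.2, 284 UMIs) and 37.8 with TDI-11055 (34.0 to 42.0, 347 UMIs). As for *Aff4*, Enl-WT stood alone and the other libraries overlapped, with ratios of 0.537 (0.455 to 0.634) and 0.900 (0.767 to 1.06). *Mllt10*, whose product assists DOT1L, followed with 127, 88.2 and 81.5 CPM. Its ratio of 0.697 (0.617 to 0.787) was −0.20 on the log2 scale relative to all genes, within 1.4-fold, and TDI-11055 over Enl-T1 was 0.923 (0.828 to 1.03). The last exons of *Mllt10* overlap *Dnajc1* on the opposite strand.

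The share of NP1-like cells with a UMI was compared after each cell was thinned at random to 2000 UMIs because depth differed between the libraries. For *Aff4* it was 25.2% (21.9 to 28.8), 11.4% (8.77 to 14.545) and 11.1% (8.58 to 14.1) in the same order of libraries, where without thinning it was 53.7%, 51.6% and 52.4%. For *Dot1l* it was 13.3%, 8.42% and 6.23%, and for *Cdk9* 13.8%, 9.42% and 15.1%, in the order of their CPM. *Aff1* went against its CPM in this draw, with 3.76%, 2.40% and 3.96%, from 24, 12 and 21 cells. The exact mean over all possible draws, added after the draw was seen, was 3.67%, 3.65% and 1.81%, so the single draw of so few UMIs gave no order. For *Ell2* the draw gave 0.784%, 1.20% and 2.26% and the mean over draws 1.03%, 1.77% and 0.895%. No kidney class is known to lack these genes, so no background share from free RNA could be set beside them.

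NP1-like cells came from 3 clusters that the groups filled unequally. Cluster 0, led by *Rspo3*, held 316, 146 and 190 cells of Enl-WT, Enl-T1 and TDI-11055, a cluster led by the replication gene *Rrm2* held 194, 213 and 189, and a cluster led by the mitosis gene *Ube2c* held 133, 141 and 152. Within them, the Enl-T1 over Enl-WT ratio of *Aff4* was 0.427, 0.476 and 0.486 and that of *Dot1l* was 0.481, 0.541 and 0.576. The TDI-11055 over Enl-T1 ratio of *Aff1* was 0.484, 0.410 and 0.344 and that of *Cdk9* was 1.37, 1.44 and 1.46. All 12 of these intervals excluded 1, but these genes were picked by their ratios in the same cells pooled, so the values are descriptions. The median log2 ratio of all genes in Enl-T1 over Enl-WT was −0.35, −0.31 and −0.32 in the same order of clusters. In cells that had a Y-linked UMI but none of *Xist*, a comparison less affected by the sex of the pooled embryos, the log2 ratio was −1.57 for *Aff4* and −0.73 for *Dot1l* in Enl-T1 over Enl-WT, and −1.29 for *Aff1* and 0.49 for *Cdk9* in TDI-11055 over Enl-T1. *Aff4*, at −0.00 in all cells of the second comparison, was at 0.44 there.

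The low ratios were not spread evenly over genes. Across all genes in NP1-like cells, the log2 ratio of Enl-T1 over Enl-WT was lower for genes with longer exonic sequence (Spearman −0.43 across genes, which are not independent replicates), and so was that of TDI-11055 over Enl-T1 (−0.40). When all genes were cut into 10 bins of length, the median of the longest bin was −0.71 in the first comparison and that of the shortest 0.16. *Aff4*, with 13450 exonic bases, lay 0.50 below the median of its bin, and *Dot1l*, with 8705, lay 0.29 below that of its own. *Yeats2* (11585 bases) and *Mllt10* (5907 bases) were 0.17 above and 0.10 below their bins. *Yeats4*, which had a ratio above 1 in that comparison, has 1415 exonic bases and lay 0.05 below the median of the shortest bin. In the second comparison *Aff1* lay 0.97 below its bin, *Ell2* 0.44 below and *Cdk9* 0.53 above. What part length-dependent capture, depth or the ribosomal share had in the members' ratios was not tested.

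**Figure D2:**
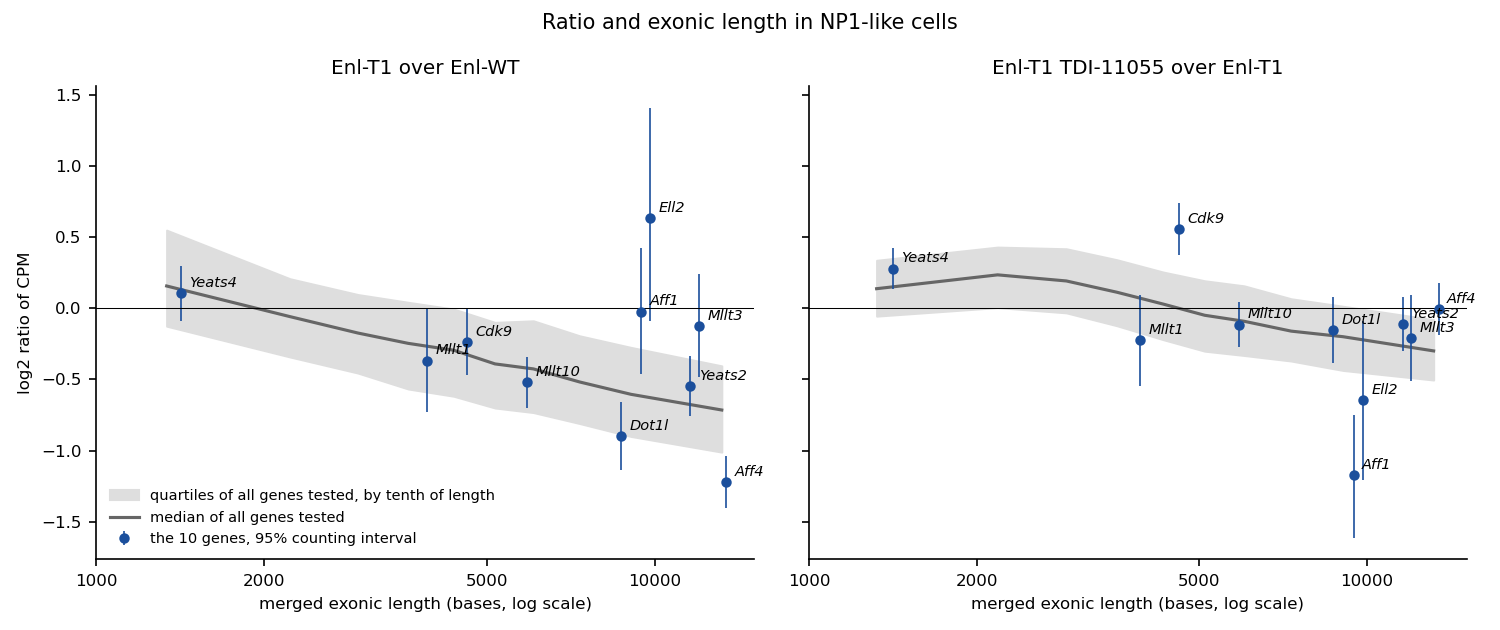
Log2 ratio of CPM in NP1-like cells (vertical axis) against merged exonic length in bases (log horizontal axis) for the 10 genes, Enl-T1 over Enl-WT and Enl-T1 TDI-11055 over Enl-T1. The grey line and band give the median and quartiles of all genes in 10 bins of length, and bars are 95% counting intervals. The line falls from 0.16 to −0.71 in the first comparison, and *Aff4* and *Dot1l* lie below it, as *Aff1* does in the second.

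Outside the progenitors, the low levels of *Aff4* and *Dot1l* in Enl-T1 were present by CPM in all 4 lineages. *Aff4* was at 167, 209, 176 and 167 CPM in Enl-WT nephron, stroma, ureteric epithelium and endothelium, and at 69.1, 112, 102 and 91.8 CPM in Enl-T1. The ratios were 0.413 (0.383 to 0.445), 0.533 (0.488 to 0.583), 0.579 (0.541 to 0.619) and 0.549 (0.473 to 0.636), and the nephron interval lay below those of the other lineages. *Dot1l* was at 73.2, 60.6, 75.02 and 80.2 CPM in Enl-WT and 42.4, 40.4, 50.1 and 45.3 CPM in Enl-T1, with ratios of 0.579 (0.522 to 0.641), 0.667 (0.570 to 0.783), 0.668 (0.605 to 0.738) and 0.565 (0.456 to 0.699). These intervals overlapped between lineages. The median log2 ratio of all genes was −0.41, −0.31, −0.30 and −0.31 in the same order. Relative to that median, *Aff4* was still lower past 1.4-fold in all 4 lineages. *Dot1l* was so in endothelium only, and was within 1.4-fold in the other lineages. This Cre is described as active in nephron and stroma, and the library and the genotype cannot be told apart in any lineage.

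Counted over the lineages, members past 1.4-fold in Enl-T1 over Enl-WT were 6 of 10 in nephron, 7 of 10 in stroma, 5 of 10 in ureteric epithelium and 6 of the 9 tested in endothelium, and every one was lower. Relative to the median of all genes in each lineage, 1, 2, 1 and 2 were lower past the fold and 0 higher. Of all genes, in the same order, 51.8%, 45.6%, 42.2% and 44.2% were past the fold by CPM in either direction, 44.9%, 36.9%, 34.8% and 36.6% were lower by CPM, and 40.7%, 35.7%, 31.4% and 34% were past the fold relative to the median in either direction. By CPM the members' shares lay above these backgrounds, and relative to the median below them. *Mllt1* had its lowest ratio in stroma, at 27.0 CPM in Enl-WT (22.2 to 32.5) and 14.49 in Enl-T1 (12.3 to 16.9), without overlap and at a ratio of 0.537 (0.419 to 0.691). In nephron its ratio was 0.741 (0.633 to 0.866) and in ureteric epithelium 0.753 (0.631 to 0.900), and in endothelium 0.602 (0.404 to 0.891). All 3 of these intervals overlapped that of stroma. *Yeats4* had ratios of 0.934 to 0.991 in the 4 lineages, all intervals included 1, and its sign turned positive under median-of-ratios scaling (0.20 to 0.38 on the log2 scale).

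For TDI-11055 over Enl-T1, members past the fold numbered 1 lower and 1 higher in nephron, 2 and 1 in stroma, 2 and 1 in ureteric epithelium and 5 and 1 in endothelium, where all genes gave 20.4%, 31.4%, 24.2% and 36.8% in either direction. *Aff1* was lower in all 4 lineages. It had 22.3 and 11.7 CPM in nephron, 8.91 and 3.44 in stroma, 37.8 and 22.9 in ureteric epithelium, and 14.47 and 5.59 in endothelium. The ratios were 0.526 (0.441 to 0.626), 0.386 (0.193 to 0.705), 0.606 (0.534 to 0.688) and 0.387 (0.174 to 0.776), and those of stroma and endothelium rested on 12 and 10 UMIs in the TDI-11055 library. *Cdk9* was higher in 3 lineages, with ratios of 1.46 (1.34 to 1.59) in nephron, 2.12 (1.83 to 2.45) in stroma and 1.55 (1.43 to 1.69) in ureteric epithelium. In endothelium it was 1.08 (0.853 to 1.37), an interval below that of the stroma.

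In stroma, *Cdk9* separated all 3 groups, with 65.0 CPM in Enl-WT (57.4 to 73.3), 42.8 in Enl-T1 (39.0 to 46.8) and 90.6 with TDI-11055 (80.8 to 101), no pair overlapping. The make-up of the stroma differed, with 136, 349 and 30 medullary stroma-like cells in the same order. In *Foxd1* stroma-like cells *Cdk9* had 72.6 (58.7 to 88.8), 57.1 (49.1 to 66.1) and 106 CPM (91.8 to 122). There Enl-WT and Enl-T1 overlapped. The part of the make-up in the stromal values was not tested. *Yeats4* was higher with TDI-11055 in each lineage, with ratios from 1.26 (1.17 to 1.35) in nephron to 1.47 (1.20 to 1.80) in endothelium. *Aff4* was lower with TDI-11055 in all 4 lineages, in nephron (0.897, 0.824 to 0.977), stroma (0.771, 0.677 to 0.875), ureteric epithelium (0.750, 0.698 to 0.806) and endothelium (0.597, 0.470 to 0.753). *Mllt1* was higher with TDI-11055 in ureteric epithelium, at 16.8 and 20.6 CPM and a ratio of 1.22 (1.04 to 1.44).

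**Figure D3:**
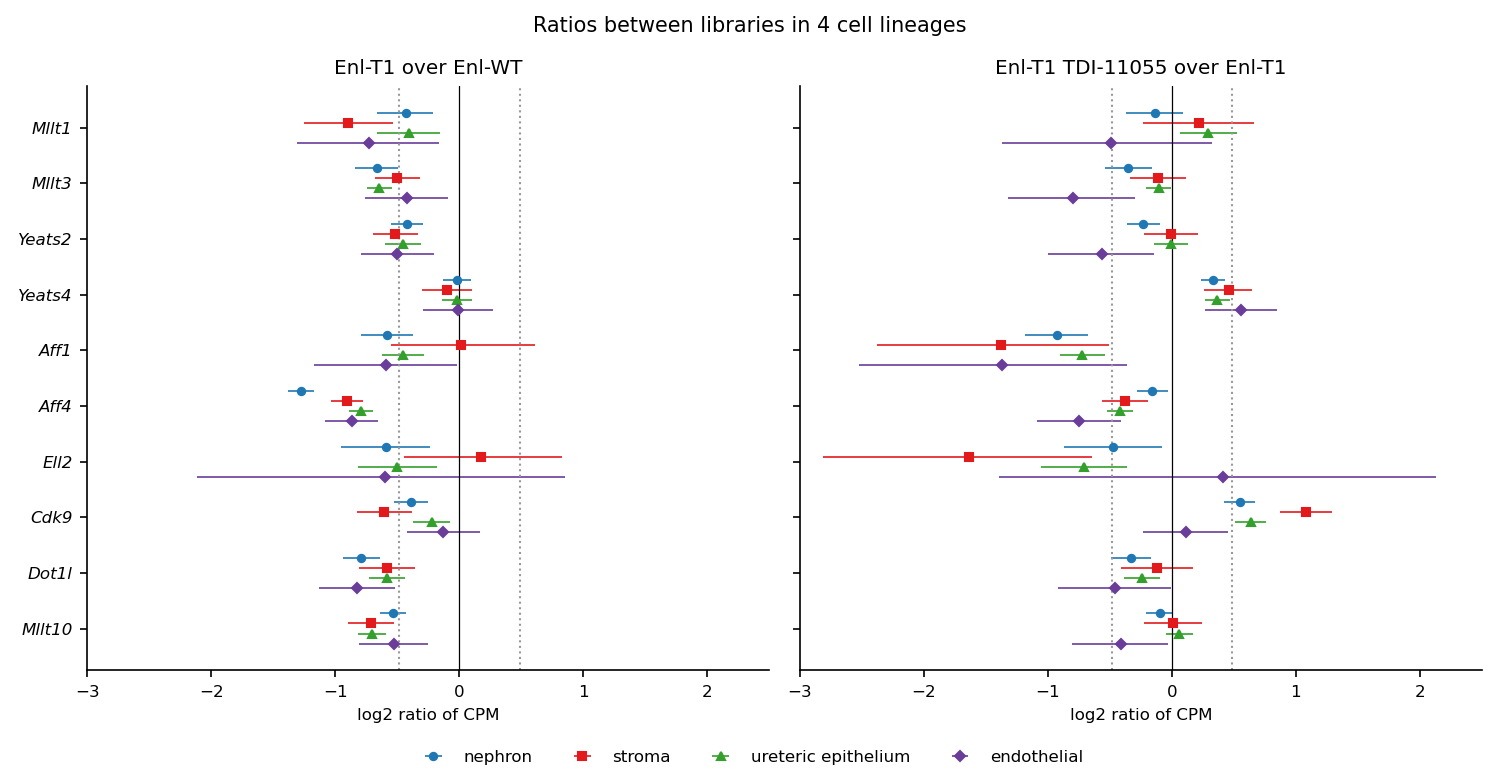
Log2 ratio of CPM (horizontal axis) of the 10 genes in nephron, stroma, ureteric epithelium and endothelial cells, for Enl-T1 over Enl-WT and Enl-T1 TDI-11055 over Enl-T1, with 95% counting intervals. *Aff4* and *Dot1l* lie left of 0 in all 4 lineages in the first comparison. In the second *Aff1* lies left of 0 in all 4 and *Cdk9* right of 0, with an interval that includes 0 in endothelium.

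By cell class, the median over the libraries of the ratio of highest to lowest level was 12.3 for *Aff1*, 8.85 for *Ell2* and 7.46 for *Mllt3*, and 1.76 to 2.30 for the other 7 genes. The highest and lowest classes were picked from these counts, which the intervals do not take into account. Levels were compared within a gene and a library only, over the 12, 11 and 9 classes of Enl-WT, Enl-T1 and the treated library that had at least 50 cells. Cells of unnamed clusters are in none of these classes, so the order does not cover them. The ureteric trunk-like class was 1 cluster, led by *Aqp2* and *Rhcg*. It had 1 trunk marker and 1 marker of another type among its 10 leading genes. The mean log2 fold of its markers was 0.265, so its name is weakly held. *Aff1* was highest in ureteric trunk-like cells (76.0, 57.1 and 38.8 CPM, from Enl-WT to TDI-11055) and lowest in *Foxd1* stroma-like cells (6.18, 7.30 and 1.64 CPM) in every library. The ratio of the trunk to the next class was 1.11 (0.859 to 1.43), 1.28 (0.899 to 1.85) and 1.05 (0.701 to 1.59). All 3 intervals included 1. Highest over lowest was 12.3 (6.04 to 29.1), 7.82 (4.92 to 12.9) and 23.6 (7.78 to 117), the last from 3 UMIs in the lower class. In Enl-WT, podocyte-like cells came next after the trunk (68.4 CPM, 57.2 to 81.2), then proximal tubule-like cells (50.1 CPM, 40.3 to 61.7), and the ratio interval excluded 1 for 2 of 11 pairs of neighbours in this order (podocyte over proximal tubule, urothelium over NP2), whose level intervals overlapped.

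*Mllt3* had the same summit. Ureteric trunk-like cells held 207 CPM in Enl-WT (185 to 231), 114 in Enl-T1 (98.7 to 131) and 133 with TDI-11055 (117 to 150). The lowest class was NP1-like in Enl-WT (27.8 CPM), renin/mesangial-like in Enl-T1 (24.2 CPM) and proximal tubule-like with TDI-11055 (12.0 CPM), for ratios of 7.46, 4.71 and 11.0. Among the 4 readers it had the widest range in Enl-WT. *Ell2* ranged from 1.54 CPM in *Foxd1* stroma-like to 23.5 CPM in podocyte-like cells of Enl-WT, a ratio of 15.2 (3.97 to 129) that rested on 2 UMIs in the lower class, and the ratio interval of every pair of neighbours in its order included 1.

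The other members had narrower ranges in the median over the libraries. *Mllt1* ran from 14.6 CPM in proximal tubule-like to 33.7 CPM in committed nephron progenitor-like (NP2-like) cells of Enl-WT, a ratio of 2.30 (1.48 to 3.71), and the ratio interval excluded 1 for 0 of 11 pairs of neighbours. *Cdk9* ran from 43.5 to 94.0 CPM and *Dot1l* from 51.7 to 83.0 CPM in Enl-WT, both with podocyte-like cells at the top. *Aff4* was also highest there in Enl-WT, at 267 CPM (244 to 291), and lowest in NP2-like cells, at 129 CPM (116 to 144). In Enl-WT, *Yeats4* was highest in ureteric tip-like cells (112 CPM, 103 to 121) and lowest in trunk-like cells (53.2 CPM, 42.4 to 65.8). This was the reverse of *Mllt3* and *Aff1* within the same epithelium. The ratio interval excluded 1 for 0 of its 11 pairs of neighbours. Its highest and lowest classes were NP2-like and renin/mesangial-like in Enl-T1, and distal tubule/loop of Henle-like and *Foxd1* stroma-like with TDI-11055.

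**Figure D4:**
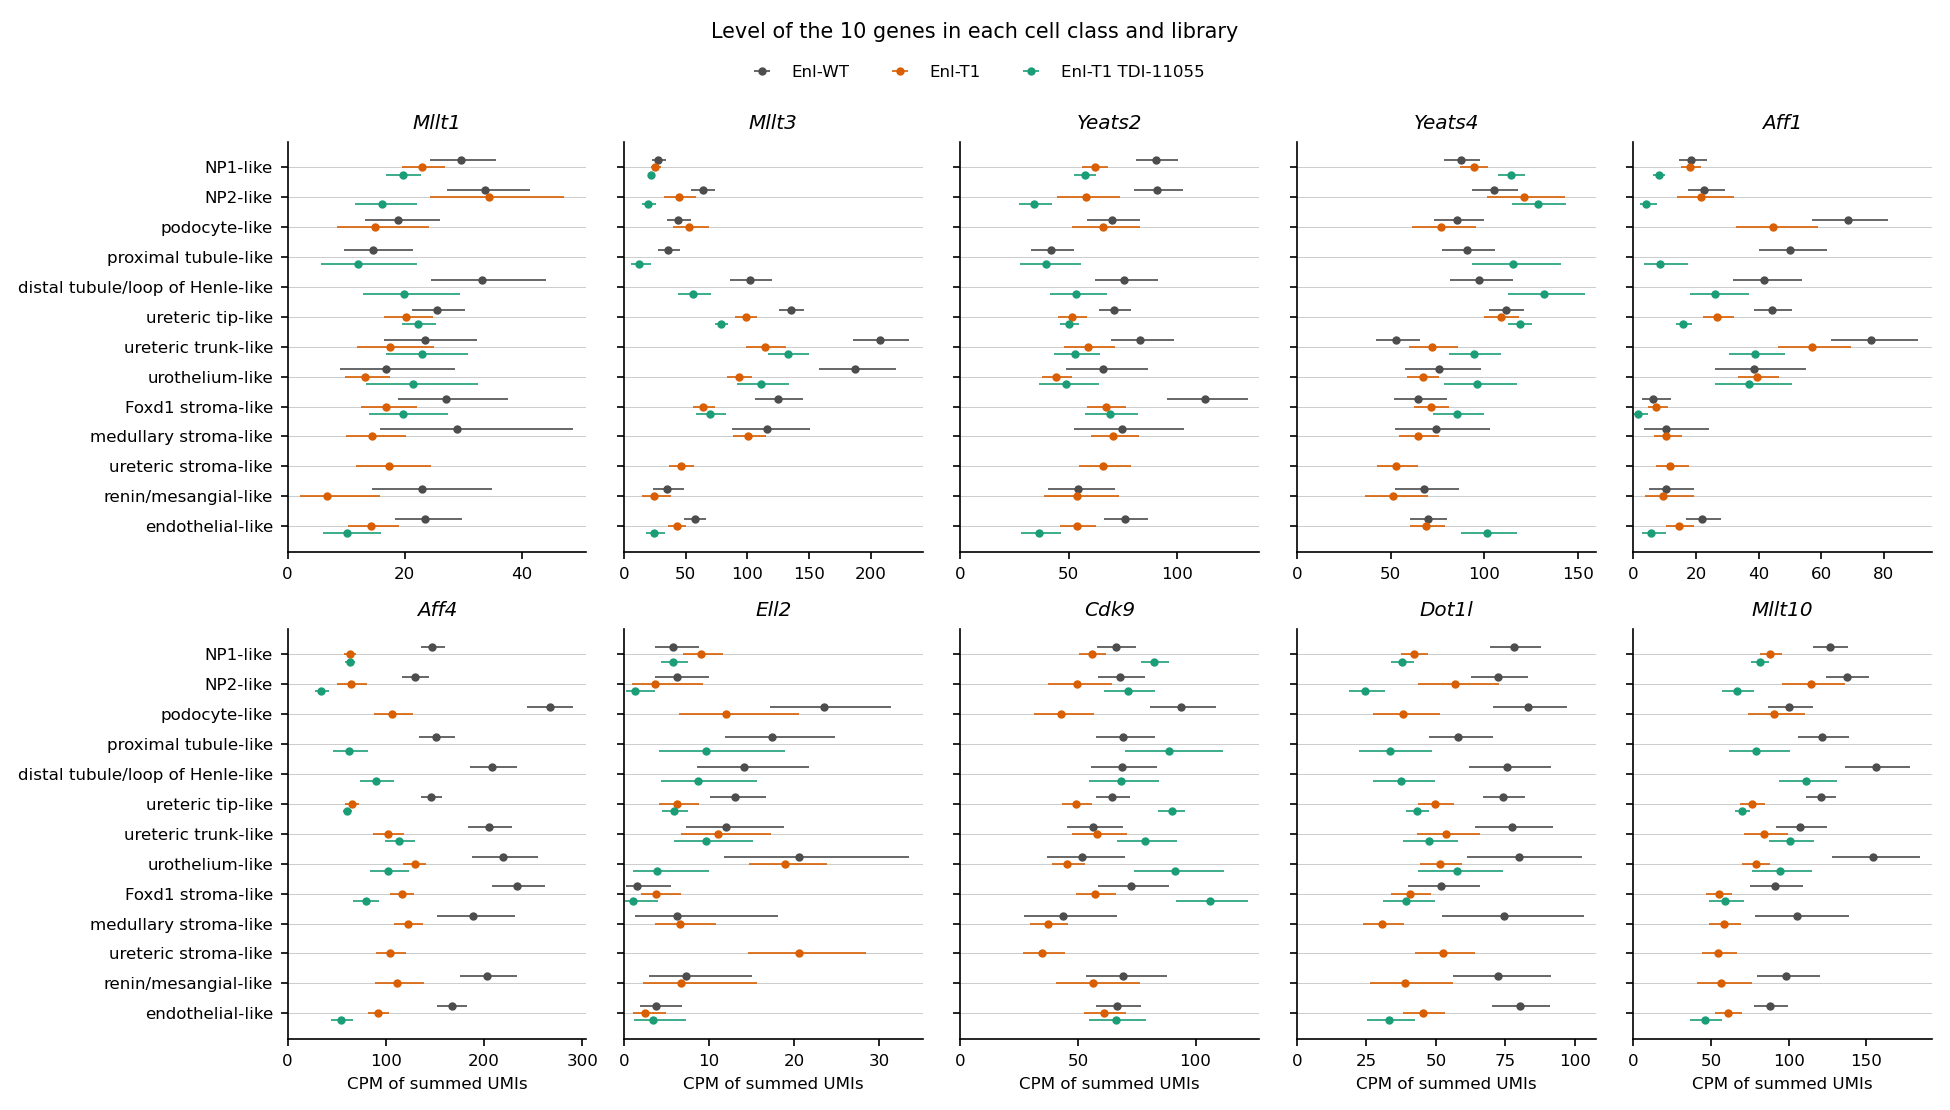
Level of each of the 10 genes (CPM of summed UMIs, one panel and scale per gene) in up to 13 cell classes of the 3 libraries, with 95% Poisson intervals; classes under 50 cells are not drawn. *Aff1* and *Mllt3* have their highest points in ureteric trunk-like cells in all 3 libraries, though not beyond counting error from the next class. The Enl-WT points of *Aff4* lie above the others in every class where Enl-WT is drawn.

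Levels in single classes could differ more than in their lineage. In NP2-like cells, with 74 Enl-T1 and 271 TDI-11055 cells, *Mllt1* had 34.3 CPM in Enl-T1 (24.3 to 47.1) and 16.2 with TDI-11055 (11.5 to 22.1), without overlap, where the nephron lineage gave a ratio of 0.909. *Aff4* had 64.1 and 34.4 CPM, *Dot1l* 56.9 and 24.5, and *Aff1* 21.7 and 4.15, the last a ratio of 0.191 (0.0817 to 0.415) from 10 UMIs in the TDI-11055 library. *Cdk9* was higher, at 49.7 and 71.3 CPM and a ratio of 1.44 (1.05 to 1.98). In this class the median log2 ratio of TDI-11055 over Enl-T1 was −0.20 over all genes and −0.90 over the 9 members tested. The ratio of all genes was lower for longer exonic sequence (Spearman −0.53 across genes, which are not independent replicates). The 74 Enl-T1 cells held 1107072 UMIs and the 271 TDI-11055 cells 2410780. The part of depth or length in these values was not tested. In proximal tubule-like cells *Aff1* had 8.41 CPM with TDI-11055 (3.38 to 17.3) and 50.1 in Enl-WT, and the class had 32 Enl-T1 cells, too few for a level. These classes were picked after their values were seen.

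Of the 61 other genes of these complexes, 57 had at least 5 CPM in NP1-like cells of Enl-WT and Enl-T1, and 28 were lower past the fold and 2 higher, with a median log2 ratio of −0.46. Relative to the median of all genes 16 were lower and 5 higher. The shares of all genes, 38.1% lower by CPM and 18.6% relative to the median, apply to the lists too. The PAF1 complex, which travels with elongating polymerase, had 4 of 6 genes lower and 1 higher (median −0.85), and the 7SK particle, which holds CDK9 inactive, 2 of 3 lower (−0.84). The other super elongation complex subunits had 4 of 5 lower (−0.59), the partners of DOT1L and MLL 4 of 5 (−0.51), the BET readers 2 of 3 (−0.63), the ATAC complex of YEATS2 5 of 10 (−0.44), and DSIF, NELF and SPT6 2 of 7 (−0.40). The TIP60 and SRCAP complexes, which contain GAS41, had 5 of 18 lower and 1 higher (−0.27). Relative to the median of all genes, the lower genes were 4 of 6 for PAF1, 2 of 3 for 7SK, 2 of 5 for the other super elongation complex subunits, 1 of 5 for the partners of DOT1L and MLL, 0 of 3 for the BET readers, 2 of 10 for ATAC, 1 of 7 for DSIF, NELF and SPT6, and 4 of 18 for TIP60 and SRCAP.

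The lowest of these genes were *Kat2b*, an acetyltransferase (14.54 and 5.18 CPM in Enl-WT and Enl-T1, ratio 0.356), *Trrap*, a scaffold of acetyltransferase complexes (136 and 58.2 CPM, 0.428), *Kmt2a*, the MLL1 histone methyltransferase (250 and 107 CPM, 0.429), and *Hexim1*, the inhibitor of CDK9 in the 7SK particle (109 and 47.1 CPM, 0.431). All 4 intervals excluded 1, but the genes were picked as the lowest from the same counts, which the intervals do not take into account. Relative to the median of all genes their log2 ratios were −1.16, −0.90, −0.89 and −0.89. *Aff4*, the lowest of the members, had −0.89. The highest were *Actr6* (1.58), *Wdr61* (1.42), *Znhit1* (1.32) and *Kat5*, the TIP60 acetyltransferase (1.23, 0.922 to 1.66). Genes of these lists were not compared with genes of like exonic length, and the part of length in their ratios was not tested.

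For TDI-11055 over Enl-T1, 56 of the 61 genes had enough UMIs, 3 were lower past the fold and 5 higher, and the median log2 ratio was −0.07. Of all genes 12.6% were lower and 9.84% higher. Relative to the median of all genes, 2 of the list were lower and 5 higher, against 12.3% and 10.3% of all genes. *Kmt2a* was again the lowest (107 and 68.7 CPM, 0.639, 0.574 to 0.712), followed by *Brd8* (0.656) and *Ep400* (0.713) of the TIP60 complex, and *Kat5* (0.751). *Ruvbl2*, an ATPase of the TIP60 and SRCAP complexes, was the highest (59.5 and 88.5 CPM, 1.49, 1.32 to 1.68), then *Sgf29* (1.48), *Tada3* (1.46) and *Nelfb*, a subunit of the pausing factor NELF (1.44). The group of DSIF, NELF and SPT6 had the highest median, 0.29, with 1 of 7 genes past the fold.

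**Figure D5:**
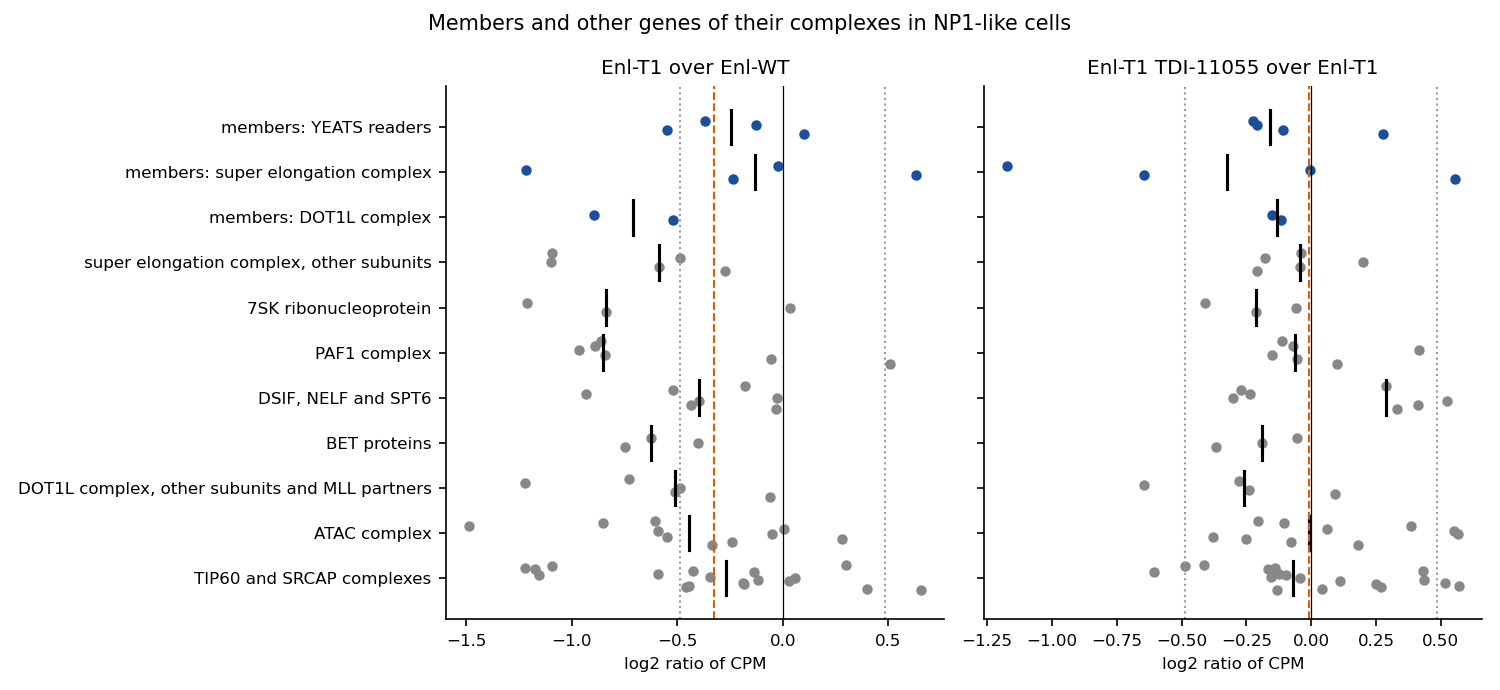
Log2 ratio of CPM in NP1-like cells (horizontal axis) of the 10 members and of the other genes in 8 lists of their complexes (rows), Enl-T1 over Enl-WT and Enl-T1 TDI-11055 over Enl-T1. Each point is a gene and each black bar the median of its list. The bars of the first comparison lie left of 0, lowest for the PAF1 complex (−0.85), and those of the second lie between −0.32 and 0.29.

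Genes with the most similar pattern over classes were found by Pearson correlation of log2(CPM + 1), centred within each library, over 32 class and library units and 6848 genes with at least 20 CPM on average. The units share libraries and depth, so the values are descriptions. *Aff1* was most like *Aftph* (0.92), *Slu7* (0.92) and *Stxbp2* (0.91), *Mllt1* like *Xpo1* (0.79), *Ehmt1* (0.78) and *Efna4* (0.74), and *Ell2* like *Ufl1* (0.76), *Aig1* (0.73) and *Fam234a* (0.73).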

How the data were processed

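Whole-kidney single-cell RNA was measured with the 10x 3′ chemistry. The deposited files hold raw UMI counts per gene and barcode, which the authors made with Cell Ranger 6.1.2 on mm10, with no later filter, doublet removal or correction for free RNA. Whether intronic reads were counted is not given in the sources used here.

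Cells were kept by the study's filter. Libraries were integrated and clustered with Seurat 5.3.0 (R 4.3.3) on 2000 variable genes without the 71 genes reported here and 128 mitochondrial, ribosomal, haemoglobin and sex-linked genes (resolution 0.5, then 0.8 within a lineage). Clusters were named from marker lists. UMIs were summed per class and library, and an exact conditional binomial interval was given for each ratio of CPM (Python 3.11.15, scipy 1.17.1) among genes with at least 5 CPM on average. Doublets were left in, and Scrublet (scanpy 1.11.5) marked 123 and 41 cells of Enl-WT and Enl-T1. It marked 2 of the TDI-11055 library, where it had not worked, so the 142 cells with the highest scores were removed instead in that alternative. The fold of 1.4 is that of the study. Lengths are merged exons of GENCODE M21.

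The members and lists were chosen with earlier results of these data known. Genes named were the 10 members, the 4 highest and 4 lowest of the other 61 genes per comparison, and the 3 genes most like *Mllt1* and the 2 members with the widest range. The tried alternatives were 16, of which 4 were added after the data were seen (the unnamed cycling cluster, equally weighted clusters, equally weighted cells, and the mean over all thinning draws).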

Additional observations from a re-analysis of the deposited data

How the results depend on the processing

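In NP1-like cells, the number of members past the fold in Enl-T1 over Enl-WT (5) was 3 under median-of-ratios scaling and 3 at a fold of 1.5. It was also 3 with totals without mitochondrial, ribosomal protein and haemoglobin genes. The median log2 ratio of the members (−0.30) was 0.013 under median-of-ratios scaling, which moved the median of all genes from −0.33 to −0.01. In TDI-11055 over Enl-T1 the number (3) was 1 at a minimum of 20 CPM, which left out *Aff1* and *Ell2*, and the median (−0.13) was −0.35 with cells weighted equally and −0.35 as the mean over all thinning draws, whose cause was not tested. Directions reversed in the single thinning draw of TDI-11055 over Enl-T1 for *Tada3* (−0.087), *Aff1* (0.50) and *Ell2* (0.91) in NP1-like cells and for *Mllt1* (0.14) and *Aff1* (0.56) in endothelial cells. The thinned *Aff1* value in NP1-like cells rested on 14 and 21 UMIs, where the mean over all draws was 18.7 and 9.71 UMIs, so that draw was far from its mean. That mean kept every direction past the fold. *Sgf29* turned to −0.14 in cells that had a Y-linked UMI but none of *Xist*. Of the values of single genes under the alternatives, 1210 stayed within the counting interval of their reported value, 211 left it with the same direction or from within the fold, and 6 reversed. Counts over other genes moved more than 1.5-fold as follows. The 8 other complex genes past the fold in TDI-11055 over Enl-T1 were 5 with no upper limit on genes, 19 in the thinned cells, 13 in cells that had a Y-linked UMI but none of *Xist* and 2 at a fold of 1.5. Over all genes, the 4603 past the fold in Enl-T1 over Enl-WT were 2802 at 20 CPM and 8409 with no filter, and the 2172 in TDI-11055 over Enl-T1 were 948, 5776 and, thinned, 3887.

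The interval of highest over lowest class in Enl-WT excluded 1 for all 10 members, and for 9 at a mitochondrial share of at most 5%. The classes were picked as extremes from the same counts, which these intervals ignore, so they are descriptions. No paired analysis was possible because each group is 1 library; no replicate was left out for the same reason. *Ell2* had 22, 61 and 53 UMIs in NP1-like cells, which limits what its ratios show.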
